A study of Mus musculus with 14 samples.

Results

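Regulatory T cells and their follicular branch were followed through 7 genes, Foxp3, Ikzf2, Ikzf4, Nrp1, Gpr83, Izumo1r and Lrrc32, taken by symbol from a table of 26683 genes. All 7 had counts in every library and were among the 13427 genes expressed highly enough to test. The table came from RNA sequencing of splenic CD4 T cells of 7 female mice aged 8 months. Triple congenic (TC) mice, B6.NZM-Sle1NZM2410/AegSle2NZM2410/AegSle3NZM2410/Aeg/LmoJ, carry 3 lupus susceptibility intervals of the NZM2410 strain on a C57BL/6J background, and C57BL/6J (B6) mice were the controls. From each spleen came follicular helper cells (Tfh), sorted as CD4+CD44+CD162lo/-PD-1+, and naive cells (Tn), sorted as CD4+CD44-, which gave 3 TC Tfh, 4 B6 Tfh, 3 TC Tn and 4 B6 Tn libraries, 1 mouse each. No treatment was given per the labels. Neither gate removed regulatory cells, so the Tfh libraries can hold follicular regulatory cells. For Tn samples the titles and cell type name naive cells but the source field names follicular helper cells, and the titles were followed.

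Foxp3 is the transcription factor that defines regulatory T cells, which restrain other lymphocytes. Some of these cells take up the follicular receptor Cxcr5 and the repressor Bcl6 and enter the B cell follicle as follicular regulatory cells, where they limit germinal centre reactions. Ikzf2 and Ikzf4 encode Helios and Eos, zinc finger factors of the Ikaros family that act with Foxp3. Nrp1 encodes neuropilin-1, a receptor for semaphorins and vascular endothelial growth factor that is common on regulatory cells formed in the thymus. Gpr83 is a G protein-coupled receptor and Izumo1r a membrane protein of the folate receptor family, both abundant on mouse regulatory cells. Lrrc32 encodes GARP, which holds latent TGF-beta on the cell surface.

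The members lie on 6 chromosomes of mm10, and positions here are those of GENCODE M21. Foxp3 runs over chrX:7573644-7595245 on the plus strand, Ikzf2 over chr1:69531214-69687245 on the minus strand and Ikzf4 over chr10:128630843-128645991 on the minus strand. Nrp1 runs over chr8:128358604-128503363 and Lrrc32 over chr7:98489283-98502181, both on the plus strand. Gpr83, at chr9:14860210-14870789 on the plus strand, and Izumo1r, at chr9:14885814-14903949 on the minus strand, are neighbours: their ends lie 15025 bases apart with 0 annotated genes between them, and they are transcribed toward each other. The promoters of Foxp3, Gpr83 and Izumo1r are shown because Foxp3 defines the cells and because this neighbouring pair differed in its response to strain. Each window holds the 250 bases before a transcription start in RefSeq (GRCm38.p6), written along the strand of the gene. RefSeq windows matched 4 of the 7 members. Foxp3 has 2 windows, at chrX:7579426-7579675 and chrX:7580233-7580482, and those of Gpr83 and Izumo1r are chr9:14859960-14860209 and chr9:14903768-14904017. Capitals mark matches to a searched motif.
Foxp3, upstream start: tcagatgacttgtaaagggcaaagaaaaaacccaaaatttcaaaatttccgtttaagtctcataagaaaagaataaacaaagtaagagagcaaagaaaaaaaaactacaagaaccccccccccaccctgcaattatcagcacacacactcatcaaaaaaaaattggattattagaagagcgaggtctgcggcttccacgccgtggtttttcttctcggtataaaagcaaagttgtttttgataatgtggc
Foxp3, downstream start: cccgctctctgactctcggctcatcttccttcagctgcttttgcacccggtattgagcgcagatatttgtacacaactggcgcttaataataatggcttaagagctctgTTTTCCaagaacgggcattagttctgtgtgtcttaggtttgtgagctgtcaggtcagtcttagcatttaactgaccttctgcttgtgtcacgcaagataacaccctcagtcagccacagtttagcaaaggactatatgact
Gpr83: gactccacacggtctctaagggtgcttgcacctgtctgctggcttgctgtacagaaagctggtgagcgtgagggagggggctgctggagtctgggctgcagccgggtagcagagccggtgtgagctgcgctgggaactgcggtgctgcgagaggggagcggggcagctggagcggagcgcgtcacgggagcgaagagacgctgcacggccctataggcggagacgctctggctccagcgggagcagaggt
Izumo1r: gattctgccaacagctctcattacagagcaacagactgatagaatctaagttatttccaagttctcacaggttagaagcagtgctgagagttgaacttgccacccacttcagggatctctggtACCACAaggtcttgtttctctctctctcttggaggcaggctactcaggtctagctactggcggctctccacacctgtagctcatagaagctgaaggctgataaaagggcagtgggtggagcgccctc
GC content was 66.8% in the Gpr83 window, 50% in that of Izumo1r, and 37.6% and 46.0% in the upstream and downstream windows of Foxp3. The letters GTAAACA (forkhead), TGTGGT (RUNX), GGAAAA (NFAT) and TGANTCA (AP-1) were searched on both strands, and no pair of these matches overlapped. GGAAAA matched on the opposite strand of the downstream Foxp3 window, 141 bases before the start, and TGTGGT on the opposite strand of the Izumo1r window, 127 bases before the start. Of 32851 mouse windows of this length, 3.17% held the forkhead letters, 14% the RUNX letters, 20.4% the NFAT letters and 6.75% the AP-1 letters. A match is a description of the letters and not evidence of binding.

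Library totals ran from 15162309 to 20191558 counts, so a floor of 3 counts is 0.15 to 0.191 CPM, counts scaled to a fixed library size. The scaling used TMM, a normalization that balances library composition, and values with ± are means with SD over mice. Transcripts of 6 Tfh markers summed to 1950 to 2320 CPM in TC Tfh and 2280 to 2610 CPM in B6 Tfh, against 113 to 127 CPM in TC Tn and 97.2 to 126 CPM in B6 Tn, as the labels imply. The 6 B cell markers summed to 71.2 to 99.2 CPM in TC Tfh and 106 to 116 CPM in B6 Tfh, against at most 2.42 CPM in any Tn library. NK markers summed to 17 to 26.1 CPM in TC Tfh, 23.1 to 41.9 CPM in B6 Tfh and 6.42 to 11.9 CPM in Tn, with Ncr1 at 0 in every group. Of lists for cell types outside the T lineage that also use Nrp1 or Lrrc32, the endothelial list summed to at most 0.728 CPM in any library with Tek at 0 throughout, and the platelet list to at most 4.57 CPM. The dendritic cell list of 7 genes summed to 32.9 to 33.9 CPM in TC Tfh and 38.4 to 47.1 CPM in B6 Tfh, against 46 to 56.5 CPM in TC Tn and 44.4 to 61.5 CPM in B6 Tn, with Siglech at 0 in every group. Most of it was Bst2, a gene T cells also express, at 24.0 and 30.1 CPM in TC and B6 Tfh and 50.65 and 55.3 CPM in TC and B6 Tn. Zbtb46 of the same list was 46.2-fold higher in Tfh in TC and 29.5-fold higher in B6, at 8.35 CPM in TC Tfh and 11.3 CPM in B6 Tfh. The myeloid list summed to 3.71 to 6.85 CPM in TC Tfh and 8.83 to 23 CPM in B6 Tfh, against 9.08 to 13.9 CPM in TC Tn and 8.95 to 14.4 CPM in B6 Tn. The part of these cells in the members' values was not tested. In RNA of a sorted pool, fewer cells of a type and less RNA per cell cannot be told apart, so a level below is that of the pool and not of a regulatory cell.

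All 7 genes were higher in Tfh than in Tn in TC mice, where 33.7% of all genes tested were called higher and 32.4% lower, and all 7 in B6 mice, where 36.9% were higher and 33.3% lower. A call means that edgeR's quasi-likelihood test gave a p below 0.05 after Benjamini-Hochberg adjustment, and fold changes are on the log2 scale with their standard error (SE). Between strains the members divided. In Tfh, TC cells had more Ikzf2 and no other member was called, so 1 of 7 was higher and 0 lower, beside 24.2% and 25.5% of all genes. In Tn, Gpr83, Foxp3 and Ikzf4 were lower in TC, 3 of 7 beside 26.1% of all genes, and 0 were higher beside 25.9%.

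**Figure D1:**
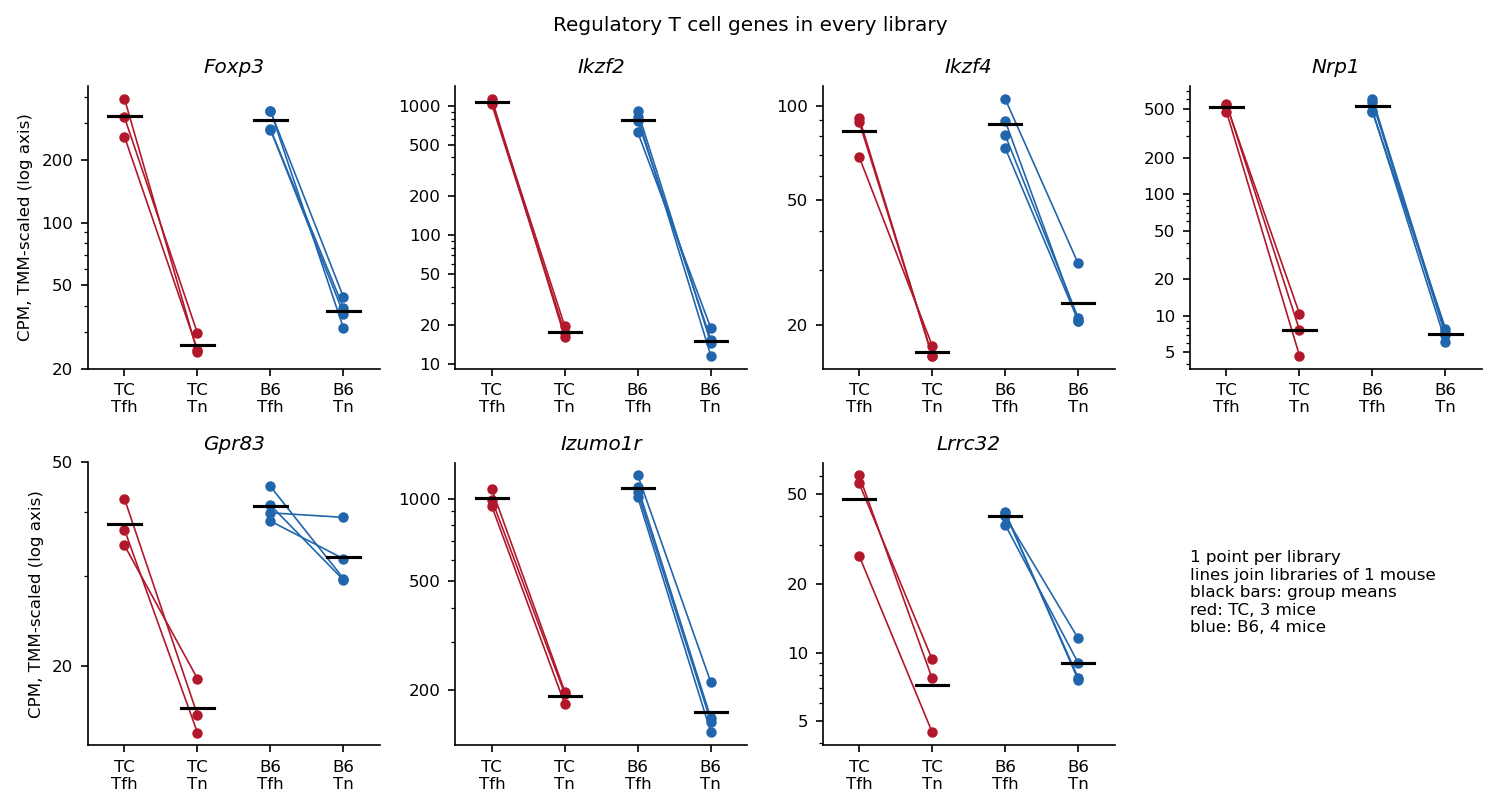
Level of each of the 7 genes in every library, in TMM-scaled CPM on a log axis, with TC in red and B6 in blue, lines joining the Tfh and Tn libraries of a mouse and black bars at group means. Ikzf2 and Nrp1 drop furthest between Tfh and Tn, and Gpr83 is the gene whose Tfh and Tn values overlap in B6 mice.

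Foxp3 stood at 319.5, 392 and 258 CPM in TC Tfh and at 344, 342.5, 279 and 279.8 CPM in B6 Tfh. Its Tn values were 29.5, 23.9 and 24.6 CPM in TC and 31.2, 43.9, 36.7 and 39.1 CPM in B6. The TC Tfh libraries spanned the B6 Tfh range on both sides, while every TC Tn library lay below every B6 Tn library. Foxp3 was 12.4-fold higher in Tfh than in Tn in TC mice (log2 3.63, SE 0.18, adjusted p = 8.97e-10) and 8.26-fold higher in B6 mice (log2 3.05, SE 0.15, adjusted p = 5.79e-10). Between strains, the Tfh difference was 0.05 on the log2 scale, TC over B6, with a 95% interval of -0.25 to 0.36 (adjusted p = 0.772). In Tn, Foxp3 was 1.45-fold lower in TC (log2 -0.53, SE 0.17, adjusted p = 0.0162). This call was lost without TC Tn replicate 2 (adjusted p = 0.0619) or TC Tn replicate 4 (adjusted p = 0.0583), and when low-count genes were kept in the test (adjusted p = 0.0513); over all alternatives the adjusted p ran from 0.000521 to 0.0619. Exons of Foxp3 overlap those of Ppp1r3f and Ccdc22 on the opposite strand and of Flicr on the same strand, so how the authors' counting divided reads there is uncertain.

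Ikzf2, the Helios gene, stood at 1031, 1139 and 1075 CPM in TC Tfh, against 910.4, 625.5, 829.9 and 767 CPM in B6 Tfh. Tn libraries held 17.5, 16.1 and 19.7 CPM in TC and 14.6, 19.0, 11.6 and 15.5 CPM in B6. Every TC Tfh library lay above every B6 Tfh library, and the Tn ranges overlapped. Between cell types Ikzf2 was 60.8-fold higher in Tfh in TC mice (log2 5.93, SE 0.17, adjusted p = 4.26e-13) and 51.6-fold higher in B6 mice (log2 5.69, SE 0.15, adjusted p = 7.48e-14). Between strains it was 1.38-fold higher in TC Tfh (log2 0.47, SE 0.12, adjusted p = 0.006), and with each library left out in turn the adjusted p ran from 0.00199 to 0.0253. In Tn the difference was 0.23 with a 95% interval of -0.11 to 0.57 (adjusted p = 0.249), and the test of whether the strain difference itself differed between cell types gave an adjusted p of 0.659. Ikzf2 overlaps exons of Gm29114, an unnamed gene that was also called higher in TC Tfh.

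Ikzf4, the Eos gene, was at 89.0, 91.6 and 68.85 CPM in TC Tfh and 105, 73.5, 89.6 and 80.7 CPM in B6 Tfh, which overlap. In Tn it was at 16.0, 16.0 and 17.3 CPM in TC and 31.5, 20.7, 20.65 and 21.2 CPM in B6, so every TC library lay below every B6 library and 1 B6 library stood well above the other 3. The gene was 5.05-fold higher in Tfh than in Tn in TC (log2 2.34, SE 0.19, adjusted p = 1.6e-07) and 3.7-fold higher in B6 (log2 1.89, SE 0.15, adjusted p = 1.54e-07). Its Tn level was 1.43-fold lower in TC (log2 -0.52, SE 0.19, adjusted p = 0.0327). Without the high B6 Tn replicate 1 the difference was -0.34 and was not called (adjusted p = 0.0714). The call was also lost without TC Tn replicate 1, 2 or 4 (adjusted p = 0.0877, 0.0879 and 0.0612) and with low-count genes kept (adjusted p = 0.0906), and over all alternatives the adjusted p ran from 0.00335 to 0.0906.

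Nrp1 had the largest contrast between cell types in either strain. Tfh libraries held 541, 476 and 549.6 CPM in TC and 570.2, 472, 607 and 485 CPM in B6, and Tn libraries 10.4, 4.70 and 7.63 CPM in TC and 6.91, 7.86, 7.37 and 6.12 CPM in B6. The strains overlapped in both cell types, and the 3 TC Tn libraries spread more widely than the 4 B6 Tn libraries. Nrp1 was 68.2-fold higher in Tfh in TC mice (log2 6.09, SE 0.20, adjusted p = 7.86e-12) and 75.5-fold higher in B6 mice (log2 6.24, SE 0.17, adjusted p = 9.7e-13). The strain difference in Tfh was -0.03 with a 95% interval of -0.33 to 0.26, and in Tn 0.12 with an interval of -0.35 to 0.58 (adjusted p = 0.865 and 0.681).

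Gpr83 had the smallest contrast between cell types of the members in each strain. It stood at 37.0, 42.5 and 34.5 CPM in TC Tfh and 44.9, 39.9, 41.3 and 38.4 CPM in B6 Tfh, against 14.9, 16.1 and 18.9 CPM in TC Tn and 29.7, 39.1, 29.5 and 32.5 CPM in B6 Tn. In B6 mouse 2 the Tfh level was only 1.02-fold the Tn level, while in TC mice the cell types did not overlap. Gpr83 was 2.28-fold higher in Tfh in TC mice (log2 1.19, SE 0.12, adjusted p = 1e-07), and 1.26-fold higher in B6 mice (log2 0.33, SE 0.09, adjusted p = 0.00443), where Tfh and Tn libraries overlapped. The strain difference lay in Tn, where TC had 1.96-fold less (log2 -0.97, SE 0.11, adjusted p = 2.38e-06), and this call held in every fit that left out 1 library, with adjusted p from 1.63e-06 to 4.3e-05. In Tfh the difference was -0.12 with a 95% interval of -0.33 to 0.10 (adjusted p = 0.352). The interaction, the log2 Tfh over Tn change in TC minus that in B6, was 0.86 (SE 0.15, adjusted p = 0.00464), and Gpr83 was the 1 member called there, beside 0.953% of all genes called in that direction and 2.32% in either. Leaving out each library in turn kept the interaction between 0.76 and 0.96 with adjusted p from 0.0031 to 0.0227. In the fit that called Gpr83, the uncalled interactions of Foxp3, Lrrc32, Ikzf4 and Ikzf2 had the same sign, at 0.59, 0.58, 0.45 and 0.24. Those of Nrp1 and Izumo1r had the other sign, at -0.15 and -0.32 (adjusted p from 0.223 to 0.865 over these genes).

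Izumo1r, the neighbour of Gpr83, was at 994, 940.3 and 1086 CPM in TC Tfh and 1014, 1220.0, 1104 and 1060.0 CPM in B6 Tfh. Tn libraries held 194, 178 and 197 CPM in TC and 140.4, 214, 158 and 153 CPM in B6. Both pairs of ranges overlapped, and B6 Tn replicate 2 lay above all other Tn libraries. Izumo1r was 5.31-fold higher in Tfh in TC mice (log2 2.41, SE 0.13, adjusted p = 1.09e-10) and 6.61-fold higher in B6 mice (log2 2.73, SE 0.11, adjusted p = 3.19e-12). TC differed from B6 by -0.13 in Tfh, with a 95% interval of -0.36 to 0.11, and by 0.19 in Tn, with an interval of -0.05 to 0.43 (adjusted p = 0.361 and 0.178). Without B6 Tn replicate 2 the Tn difference was 0.33 and was called higher in TC (adjusted p = 0.0026, in a range of 0.0026 to 0.409 over all alternatives). The interaction was -0.32 (SE 0.16, adjusted p = 0.385). With mouse as a block it was -0.33 and was called (adjusted p = 0.0313), as it was without B6 Tn replicate 2 (-0.46, adjusted p = 0.0433), in a range of 0.0313 to 0.569 over all alternatives. In each strain the mice ranked in the same order for Izumo1r in their Tfh and Tn libraries, which held for no other member. Its Tfh over Tn fold within a mouse ran from 5.13 to 5.5 in the 3 TC mice and from 5.71 to 7.22 in the 4 B6 mice.

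Lrrc32, the GARP gene, was at 55.9, 60.7 and 26.8 CPM in TC Tfh and 41.9, 39.98, 36.7 and 41.3 CPM in B6 Tfh. Tn libraries held 9.35, 7.69 and 4.46 CPM in TC and 7.58, 11.6, 9.01 and 7.75 CPM in B6. TC mouse 4 had the lowest Lrrc32 of its group in both cell types, and the other 2 TC Tfh libraries lay above all B6 Tfh libraries. Lrrc32 was 6.66-fold higher in Tfh in TC mice (log2 2.74, SE 0.32, adjusted p = 1.22e-05) and 4.47-fold higher in B6 mice (log2 2.16, SE 0.27, adjusted p = 1.66e-05). The strain difference in Tfh was 0.25 with a 95% interval of -0.30 to 0.81 (adjusted p = 0.43), but 0.56 and called without TC Tfh replicate 4 (adjusted p = 0.0162, in a range of 0.0162 to 0.874 over all alternatives). In Tn it was -0.32 with an interval of -1.08 to 0.43 (adjusted p = 0.463).

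**Figure D2:**
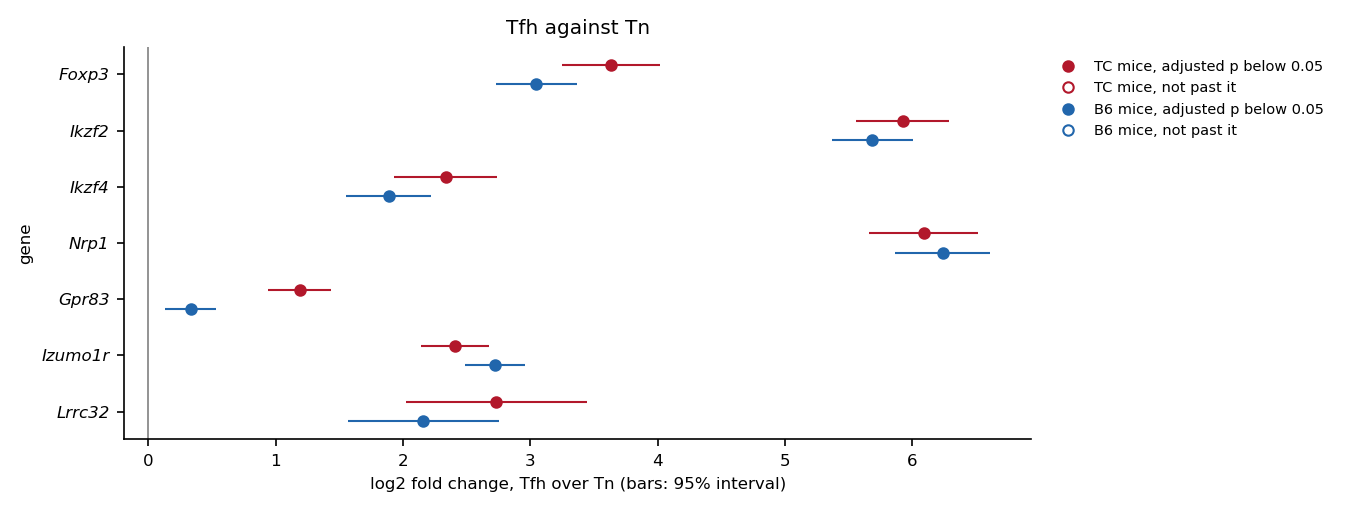
Fitted log2 fold change of Tfh over Tn for each gene, TC mice in red above B6 mice in blue, with 95% intervals not adjusted for the number of genes. Every value is positive and called, from 0.33 for Gpr83 in B6 mice to 6.24 for Nrp1 in B6 mice, and the strains stand apart most clearly for Gpr83.

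**Figure D3:**
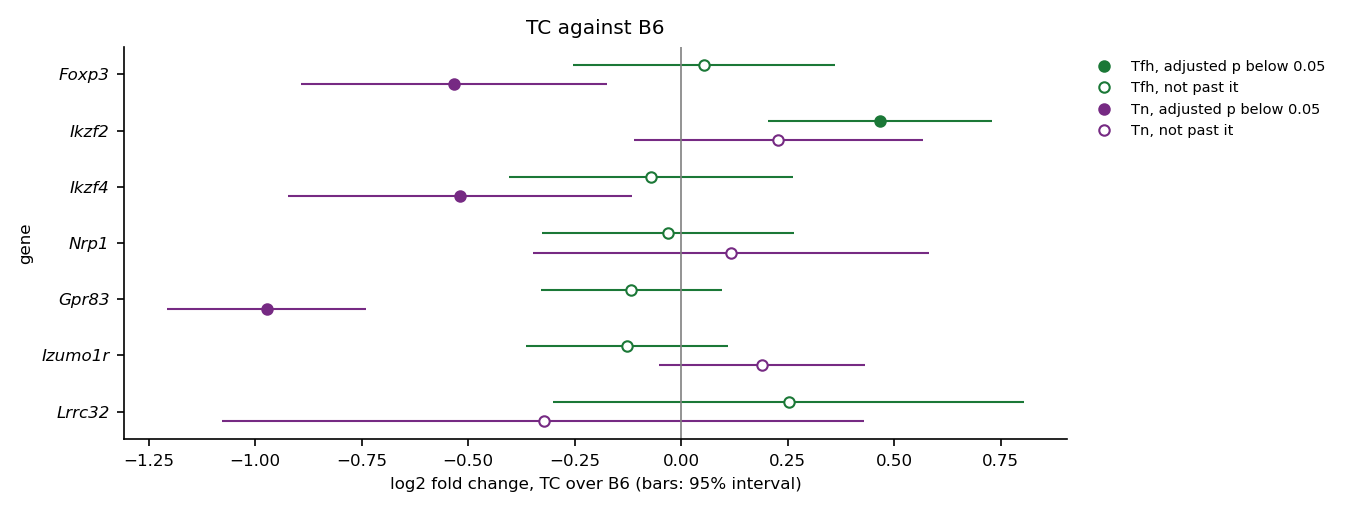
Fitted log2 fold change of TC over B6 for each gene, Tfh in green above Tn in purple, with 95% intervals not adjusted for the number of genes and filled points for calls. Ikzf2 is filled in Tfh at 0.47, and Gpr83, Foxp3 and Ikzf4 are filled in Tn at -0.97, -0.53 and -0.52.

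Divided by merged exon length, the levels fell into tiers that differed between cell types. In Tfh, Izumo1r was highest at 434 ± 31.9 CPM per kb in TC and 474 ± 38.2 in B6. Ikzf2 followed at 93.1 ± 4.65 in TC and 67.4 ± 10.4 in B6, Foxp3 at 70.6 ± 14.6 and 68.0 ± 8.08, and Nrp1 at 53.4 ± 4.13 and 54.5 ± 6.71 CPM per kb. Foxp3 and Ikzf2 overlapped in B6 Tfh but not in TC Tfh, where every Ikzf2 value exceeded every Foxp3 value, and Nrp1 and Foxp3 likewise overlapped in B6 only. Ikzf4 stood at 13.9 ± 2.07 and 14.6 ± 2.29, Lrrc32 at 10.2 ± 3.91 and 8.53 ± 0.50, and Gpr83 at 7.45 ± 0.80 and 8.07 ± 0.55 CPM per kb in TC and B6 Tfh, where Lrrc32 and Gpr83 overlapped in both strains and Ikzf4 and Lrrc32 in TC only. In Tn, Izumo1r again led at 81.7 ± 4.47 in TC and 71.7 ± 14 in B6, with Foxp3 next at 5.68 ± 0.66 and 8.24 ± 1.16 CPM per kb. Gpr83 was next at 3.26 ± 0.41 in TC and 6.41 ± 0.88 in B6, then Ikzf4 at 2.74 ± 0.12 and 3.92 ± 0.89. Gpr83 overlapped Foxp3 in B6 Tn but not in TC Tn, and it overlapped Ikzf4 in neither. Ikzf2 and Lrrc32 lay between 0.95 and 2.47 CPM per kb in every Tn library, and Nrp1 was lowest at 0.774 ± 0.291 in TC and 0.722 ± 0.076 in B6. Merged exons count bases that a given cell may not transcribe, so the order between genes is approximate.

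The Tn level as a share of the Tfh level set the members apart from each other. Nrp1 in Tn was 1.45% of its Tfh mean in TC and 1.32% in B6, and Ikzf2 was 1.64% in TC and 1.94% in B6. Those shares are close to those of the sort gene Pdcd1, which encodes PD-1, at 1.21% in TC and 1.27% in B6, and of Cxcr5 at 1.2% in TC and 1.48% in B6. Foxp3 was at 8.04% in TC and 12.1% in B6, Lrrc32 at 15% and 22.4%, Izumo1r at 18.8% and 15.1%, Ikzf4 at 19.8% and 26.9%, and Gpr83 at 43.8% and 79.5%. The B6 Tn library of mouse 2 was the highest B6 Tn library for 6 of the 7 members. It was also the highest Tn library for Pdcd1 at 11.1 CPM, Cxcr5 at 13.2 CPM and Tox2 at 1.33 CPM, where the other Tn libraries ran from 4.20 to 8.02 CPM, 4.32 to 9.54 CPM and 0.464 to 0.835 CPM. The part of Tfh transcripts in that library's values was not tested.

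Set against Foxp3 in the same library, the members changed their proportions between cell types in all 7 mice. Ratios of counts, with 0.5 added to each, were compared within mice by an exact two-sided sign-flip test, whose smallest possible p with 7 mice is 0.0156, and all 6 ratios reached it (adjusted p = 0.0156 over the 6). Ikzf2 per Foxp3 had a median of 3.23 in TC Tfh and 2.7 in B6 Tfh, against 0.676 in TC Tn and 0.415 in B6 Tn, a mean change of 2.50 on the log2 scale (SD 0.40, n = 7, exact p = 0.0156). Nrp1 per Foxp3 had a median of 1.69 in both TC and B6 Tfh, against 0.31 in TC Tn and 0.19 in B6 Tn, a mean change of 2.91 (SD 0.43, n = 7, exact p = 0.0156). The other 4 ratios were lower in Tfh in every mouse. Mean log2 changes were -2.59 ± 0.27 for Gpr83, -1.21 ± 0.34 for Ikzf4, -0.89 ± 0.24 for Lrrc32 and -0.70 ± 0.56 for Izumo1r. The Izumo1r change was smaller in B6. Its mean log2 ratio was 1.657 in TC Tfh against 2.87 in TC Tn, and 1.825 in B6 Tfh against 2.132 in B6 Tn. Gpr83 counts had a median of 0.116 per Foxp3 count in TC Tfh and 0.134 in B6 Tfh, against 0.673 in TC Tn and 0.859 in B6 Tn.

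Between strains, the ranges of the ratio to Foxp3 in Tfh overlapped for all 6 genes. An exact two-sided permutation test of 3 TC against 4 B6 mice cannot give a p below 0.0571. Ikzf2 per Foxp3 ran from 2.90 to 4.16 in TC Tfh and from 1.83 to 2.98 in B6 Tfh, a mean difference of 0.44 on the log2 scale with an exact p of 0.114, and 0.686 after adjustment over the 6 ratios. The other 5 differences lay between -0.17 and 0.13 with exact p from 0.229 to 0.743. In Tn, Izumo1r per Foxp3 ran from 6.57 to 8.02 in TC and from 3.92 to 4.86 in B6, and Ikzf2 per Foxp3 from 0.592 to 0.799 in TC and 0.317 to 0.468 in B6, both higher in TC without overlap. Gpr83 per Foxp3 was lower in TC without overlap, from 0.504 to 0.769 in TC and from 0.804 to 0.952 in B6. These Tn ratios share Foxp3 as denominator, which was itself 1.45-fold lower in TC Tn without overlap. Izumo1r and Ikzf2 were not called there (adjusted p = 0.178 and 0.249 by edgeR). A gene with equal levels in both strains would thus tend to a higher ratio in TC. The Tn ratios were not tested between strains, and the share of all genes whose ratios separate was not computed.

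**Figure D4:**
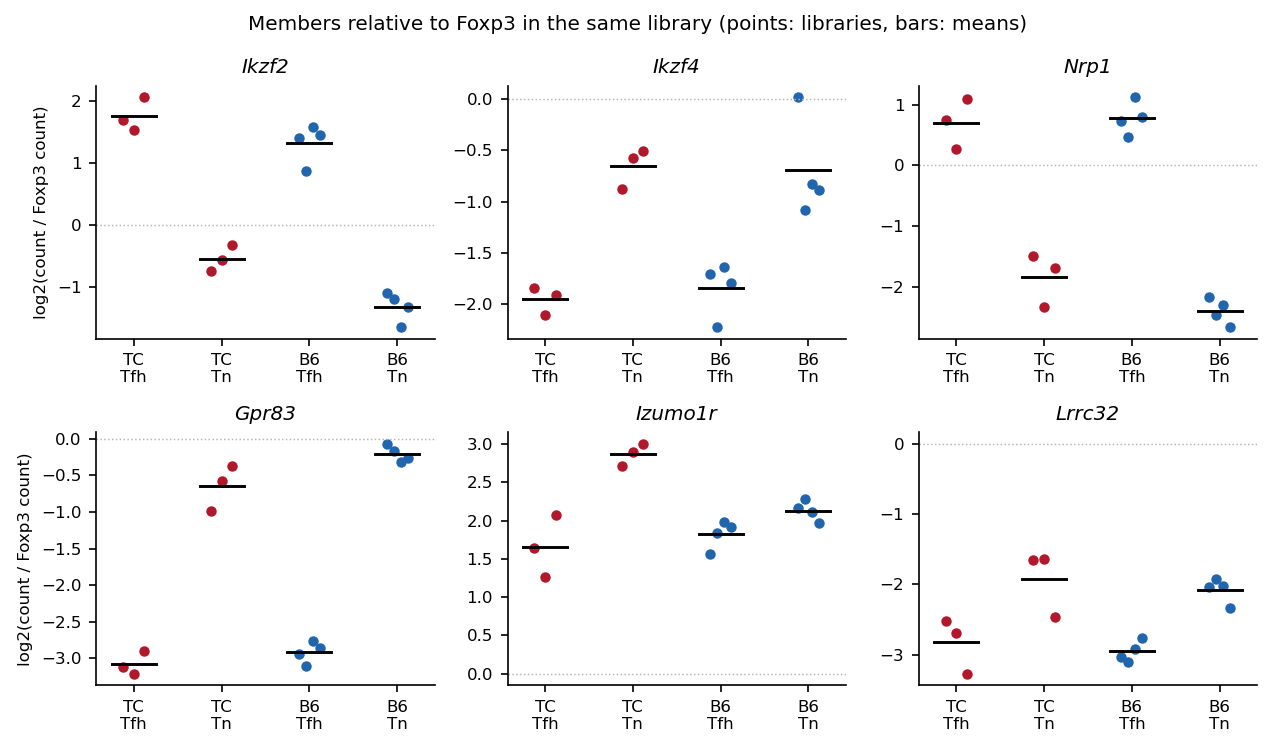
Log2 ratio of each gene's count to the Foxp3 count of the same library, with 1 point per library, bars at group means, TC in red and B6 in blue. Ikzf2 and Nrp1 lie above 0 in every Tfh library and below 0 in every Tn library, and Gpr83, Ikzf4, Izumo1r and Lrrc32 have lower mean ratios in Tfh than in Tn.

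A wider list of 20 other genes high in regulatory cells followed the members between cell types: 20 were higher in Tfh in TC (median log2 4.09, against -0.01 over all genes tested) and 20 in B6 (median 3.91, against 0.02). Of all genes 33.7% were higher in TC and 36.9% in B6. Entpd1 and Nt5e, the enzymes CD39 and CD73 that turn extracellular ATP into adenosine, were 22.6-fold and 15-fold higher in TC and 23.0-fold and 13.3-fold higher in B6. Many of these genes are also used by activated helper cells. Between strains the called genes of the list went both ways in Tfh and were mostly lower in TC in Tn. In Tfh, 3 were higher and 6 lower in TC (median -0.17, against -0.02 over all genes tested), beside 24.2% of all genes higher and 25.5% lower. The cytokine Il10 was 4.85-fold higher, at 15.3 CPM in TC Tfh and 3.14 CPM in B6 Tfh (adjusted p = 7.47e-05), and the integrin Itgae 1.72-fold higher (adjusted p = 0.00165). The costimulatory receptors Tnfrsf18 (GITR) and Tnfrsf4 (OX40) were 1.64-fold and 1.55-fold lower in TC Tfh (adjusted p = 0.000122 and 5.89e-05). In Tn, 1 was higher and 9 lower in TC (median -0.57, against -0.01 over all genes tested), beside 25.9% of all genes higher and 26.1% lower. Tnfrsf18 was 1.92-fold lower, at 37.6 CPM in TC Tn and 72.2 CPM in B6 Tn, Capg 2.04-fold lower and the interleukin-2 receptor chain Il2rb 1.76-fold lower (adjusted p = 1.62e-05, 2.12e-05 and 4.12e-05).

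**Figure D5:**
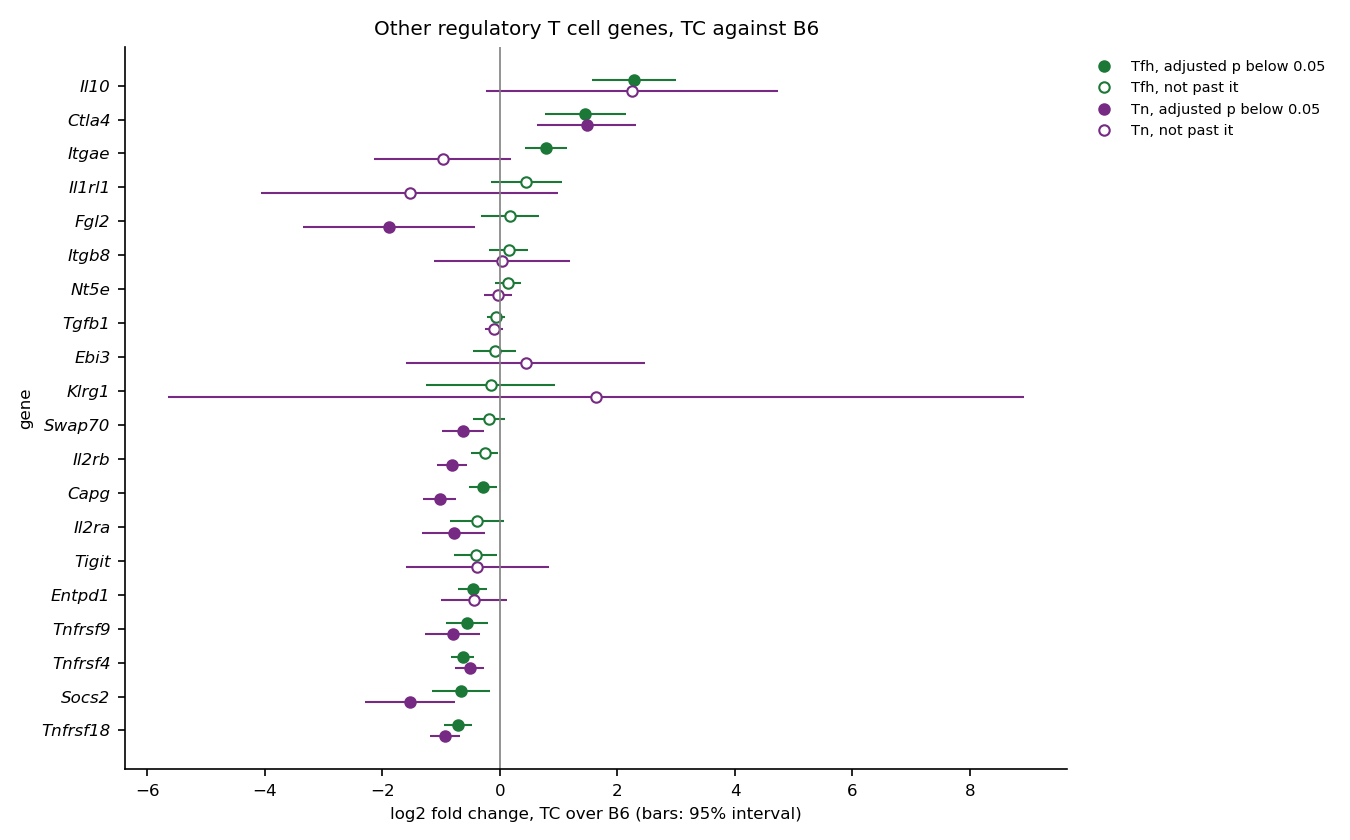
Fitted log2 fold change of TC over B6 for 20 other genes high in regulatory T cells, ordered by the Tfh value, with Tfh in green above Tn in purple, 95% intervals not adjusted for the number of genes and filled points for calls. In Tfh 3 genes are filled above 0 and 6 below it, and in Tn 1 is filled above 0 and 9 below it, while genes near 0 counts in Tn have wide intervals.

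Of 8 genes linked to follicular regulatory cells, 8 were higher in Tfh in each strain. Of all genes 33.7% were higher in TC and 36.9% in B6. The median of the list was 4.62 in TC and 4.73 in B6 on the log2 scale, against -0.01 and 0.02 over all genes. Cxcr5 and Bcl6 of this list are also among the 6 Tfh markers used above. The count therefore cannot separate follicular regulatory cells from helper cells. Between strains in Tfh, 3 were higher and 3 lower in TC, beside 24.2% of all genes higher and 25.5% lower. Ctla4, an inhibitory receptor, was 2.74-fold higher, at 629.7 CPM in TC Tfh and 229.9 CPM in B6 Tfh (adjusted p = 0.00298). Nrn1, Il1r2 (the decoy receptor for interleukin-1) and Cxcr5 were 3.18-fold, 2.1-fold and 1.5-fold lower (adjusted p = 0.000216, 0.00131 and 0.00187). In Tn, Ctla4 was 2.78-fold higher with overlapping libraries and Cxcr5 1.84-fold lower in TC (adjusted p = 0.0073 and 0.00281).

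Factors that act on or with Foxp3 went both ways between cell types. Of 28, 11 were higher and 14 lower in Tfh in TC, and 9 were higher and 14 lower in B6. Of all genes 33.7% were higher and 32.4% lower in TC, and 36.9% higher and 33.3% lower in B6. The higher counts lie near these shares. The lower count of 14 of 28 lies above them in each strain, a difference that was not tested. Lef1 and Bach2, both factors of naive cells, were 6.55-fold and 6.73-fold lower in TC Tfh than in TC Tn, and 7.08-fold and 6.96-fold lower in B6. Gata3 was 2.61-fold higher in TC and 2.22-fold higher in B6, and the histone methyltransferase Ezh2 2.31-fold and 2.35-fold higher. In Tfh, 11 of the 28 were higher and 2 lower in TC than in B6 (median 0.015), beside 24.2% of all genes higher and 25.5% lower. Among them were the 5-methylcytosine oxidases Tet2 and Tet3, 1.71-fold and 1.43-fold higher, Smad4 of the TGF-beta pathway at 1.33-fold, and Runx1 at 1.32-fold (adjusted p = 2.87e-06, 5.53e-05, 9.28e-06 and 5.81e-05). In Tn, 6 were higher and 4 lower, beside 25.9% of all genes higher and 26.1% lower. Tet2 was 1.91-fold higher in TC Tn (adjusted p = 3.19e-07).

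The families and partners of the members gave their own patterns. Of the 5 Ikaros factors, Ikzf1 was 1.89-fold lower in TC Tfh than in TC Tn and 2.28-fold lower in B6, while Ikzf2, Ikzf4 and Ikzf3 were higher in both strains. Ikzf5 was lower in Tfh in TC (log2 -0.23, adjusted p = 0.0128) and not called in B6 (-0.12, adjusted p = 0.14). Of 12 semaphorin, plexin and growth factor partners of Nrp1, 8 were expressed highly enough to test. In TC Tfh 4 of the 8 were higher than in B6 Tfh and 0 lower, beside 24.2% of all genes higher and 25.5% lower, and 3 to 5 were called in either direction with 1 library left out. They were led by the semaphorin co-receptors Plxna1, 2.88-fold higher at 26.5 CPM in TC and 9.19 CPM in B6, and Plxna3, 1.77-fold higher (adjusted p = 6.64e-09 and 2.31e-06). Plxna1 was also 2.63-fold higher in TC Tn (adjusted p = 7.04e-09), whereas Nrp1 was called in neither cell type. Of 10 genes that handle latent TGF-beta, 7 were tested, and 6 were higher and 1 lower in Tfh than in Tn in each strain. Of all genes 33.7% were higher and 32.4% lower in TC, and 36.9% and 33.3% in B6. Itgb8, whose integrin releases TGF-beta from GARP, was 192-fold higher in TC and 177-fold higher in B6, on Tn means of 1.02 CPM in TC and 1.03 CPM in B6. Tgfb3 was 1.51-fold lower in TC Tfh than in B6 Tfh (adjusted p = 0.00504), and the protease Furin was 1.31-fold higher in TC Tn (adjusted p = 1.63e-06).

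Profiles over the 14 libraries placed the members in different company. Likeness was the root mean square difference of log2 CPM after each gene was centred on its mean, over 9321 genes averaging 5 CPM or more, and small values mean alike profiles. Among the members themselves Ikzf2 and Nrp1 were closest at 0.377, followed by Ikzf4 and Lrrc32 at 0.421, and Nrp1 and Gpr83 were furthest apart at 2.78. Nearest to Foxp3 were Grik5 at 0.219, Rnf43 at 0.252 and Anxa4 at 0.257. Dmwd at 0.221, Myo1e at 0.229 and Csf1 at 0.285 lay nearest to Ikzf2, and Coro2b at 0.254, Cc2d2a at 0.269 and Myo1f at 0.292 to Nrp1. In Tn, Dmwd averaged 0.095 CPM in TC and 0.041 CPM in B6, and Cc2d2a 0.037 CPM in TC and 0.014 CPM in B6, all under the floor of 3 counts. The distances of these 2 genes therefore rest on the prior count of 2 added before the logarithm. For Ikzf4 they were Ccdc157 at 0.162, Zfp41 at 0.195 and Swap70 at 0.2, and for Lrrc32 Odc1 at 0.269, Tmem38b at 0.352 and Gadd45b at 0.356. Gpr83 was nearest to Nr4a3, an immediate early nuclear receptor, at 0.191, with Gskip at 0.22. Nr4a3 averaged 49.5 ± 3.62 CPM in TC Tfh and 50.6 ± 8.65 CPM in B6 Tfh, against 24.4 ± 2.87 CPM in TC Tn and 35.7 ± 4.88 CPM in B6 Tn. Izumo1r was nearest to Abi2 at 0.176, Kctd17 at 0.185 and the costimulatory receptor Icos at 0.19. These distances describe the libraries at hand, in which the contrast of cell types dominates.

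Of the 10 tested genes nearest to Gpr83, 5 on either side, Cwc15 and Panx1 were called lower in TC Tn and 0 higher, beside 26.1% and 25.9% of all genes. In Tfh the same 2 were lower and Taf1d higher, beside 25.5% and 24.2% of all genes. The windows around Foxp3 in Tfh and around Lrrc32 in both cell types also held 2 called genes of 10. Other windows held more. Around Foxp3 in Tn 3 of 10 were higher and 3 lower, and around Ikzf2 in Tfh 4 and 2. Around Ikzf4, 1 was higher and 6 lower in Tfh, and 3 and 6 in Tn. Around Nrp1, 4 of 8 were higher and 3 lower in both cell types. Over all windows, some of which share genes, 45.6% of 68 entries were called in Tfh, 15 higher and 16 lower. In Tn 50% were called, 13 higher and 21 lower. Of all genes, 24.2% were higher and 25.5% lower in Tfh, and 25.9% and 26.1% in Tn, so the windows together lay near these shares. Izumo1r, the gene adjacent to Gpr83, was called in neither cell type. Exons of Ikzf4 overlap those of Gm26876, and exons of Nrp1 those of Mir1903. Ikzf2 lies on chromosome 1 and Lrrc32 on chromosome 7, which also carry Sle1 and Sle3, but the ends of those intervals were not used here, and the reference genome is that of B6. How far strain sequence differences moved the counts was not tested.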

How the data were processed

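Per the labels' protocols, RNA was column-purified from the Tfh and Tn cells of each mouse and made into libraries with a TruSeq Stranded kit. STAR 2.7, the build mm10 and DESeq2 were named, per the submitters' processing notes. The authors deposited unnormalized read counts per gene symbol, and 0 columns were left unused. The counter, its strand setting and the annotation are not given in these sources, so counts of overlapping genes are uncertain. Reads came from TC and B6 mice but were aligned to the B6 sequence, and alleles were not corrected.

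CPM and tests were computed from the deposited counts with edgeR 4.0.16 in R 4.3.3: filterByExpr at a count minimum of 10, TMM, and robust quasi-likelihood over 4 group means in 14 libraries, adjusted over 13427 genes. The 5 comparisons were Tfh against Tn per strain, TC against B6 per cell type, and their interaction. The SE is the log2 fold change divided by the root of F, and intervals are at 95%. Floors cover counting error only. Ratio tests were exact (scipy 1.17.1). The fit was also run on simulated libraries that shared a mean profile apart from set changes and had no pairing by mouse. That run does not cover the wide contrast of cell types or the pairing in these data.

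Replicate numbers mark mice by the protocol. Deviations of the 2 libraries of a mouse from their group means had correlations from 0.207 to 0.257 over TC mice and from 0.039 to 0.299 over B6 mice. Libraries of different mice were not compared in this way, so these values do not test the pairing. No 2 libraries of a group were duplicates (chi-square per degree of freedom 4.99 to 18.8).

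Members and lists were chosen with earlier results of these data known. Named genes were all members, up to 4 called genes per list and comparison with the smallest adjusted p, and the 3 nearest profiles of each member, leaving out unnamed genes; 1 of these is not reported here. Alternatives were DESeq2 1.42.0, limma 3.58.1 voom with a random mouse effect, RLE or no scaling factors, no filter or a minimum of 50, a block by mouse, only the 2 groups compared, and each library left out. Sequencing batch is not in the labels.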

Additional observations from a re-analysis of the deposited data

Results flagged for a closer look

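Of the 14 groups of 4 B6 libraries, 2 per gene, the Tn group of Ikzf4 held 1 library far from its fellows: replicate 1 stood at 31.5 CPM and the other 3 between 20.65 and 21.2 CPM. The gap passed Dixon's critical value of 0.829 for 4 samples, which chance passes in about 5% of groups. The same mouse also had the highest Ikzf4 of the B6 Tfh libraries, at 105 CPM. That Tfh library was, however, the highest of its group for 5 of the 7 members, so this was not particular to Ikzf4.

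The effect of strain differed between Tfh and Tn, by edgeR's interaction test, for 4 genes among the members and the lists other than cell type markers. These were 1 of 7 members, 1 of 20 wider regulatory genes, 1 of 28 Foxp3 factors and 1 of 7 latent TGF-beta genes. The follicular regulatory, Ikaros and Nrp1 partner lists added 0. Of all genes tested 2.32% were called. Gpr83 had an interaction of 0.86 on the log2 scale (adjusted p = 0.00464), with the strain difference in Tn and none called in Tfh. Capg, an actin-capping protein, had 0.74 (adjusted p = 0.0406): it was lower in TC by log2 -0.29 in Tfh and -1.03 in Tn. Smad4 had 0.49 (adjusted p = 0.00121), with TC over B6 at 0.41 in Tfh and -0.08 in Tn. Furin had -0.29 (adjusted p = 0.0218), with TC over B6 at 0.11 in Tfh and 0.39 in Tn. With each library left out in turn, Capg lost its call in 9 fits (highest adjusted p = 0.124) and Furin in 7 (highest adjusted p = 0.107).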

How the results depend on the processing

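All 7 members stayed higher in Tfh in both strains under every alternative run, and the calls of Gpr83 in Tn and in the interaction and of Ikzf2 in Tfh kept their side of the threshold. With no filter, 1 member rather than 3 was called lower in TC Tn. Over fits leaving out 1 library, 1 to 2 members were called between strains in Tfh, 1 to 4 in Tn and 1 to 2 in the interaction. The interaction called 312 of all genes, against 736 with mouse as a block, 568 with voom, 535 with DESeq2 and 159 to 344 with 1 library left out, lowest without TC Tn replicate 2. The block called 2 members there, adding Izumo1r (-0.33), and changed no other call of a member, and strain itself cannot be blocked by mouse. Directions of uncalled values turned when 1 library was left out. TC over B6 in Tfh ran from -0.092 to 0.207 for Foxp3, -0.135 to 0.062 for Ikzf4 and -0.075 to 0.054 for Nrp1. Nrp1 ran from -0.18 to 0.35 in Tn and -0.38 to 0.15 in the interaction. The ratio to Foxp3 in Tfh, TC minus B6, ran from -0.26 to 0.15 for Nrp1, -0.026 to 0.351 for Lrrc32 and -0.38 to 0.03 for Izumo1r. Library totals alone moved the median of all genes to 0.15 in Tfh against Tn in B6, and Gpr83 there to 0.47. Causes were not tested. In Tn, Nrp1 and Lrrc32 rest on 398 and 369 counts in TC and 505 and 639 in B6, the fewest of the members, which limits the precision of their Tn values.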
